A study of Mus musculus with 8 samples.

Results

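The regions described here are 409 transcripts that the authors' software assembled from small RNA reads at positions without annotation. They were taken as the rows whose name starts with Cuff and whose locus is the same in both the supernatant table and the pellet table. The supernatant table lists 808 such rows among 5096 rows in all, and the pellet table lists 472 among 3005. All 409 carried the same Cuff number in both tables, and loci on mm9 ranged from 172 to 8250 bp, with a median of 974 bp.

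The study followed small RNA through purification of the chromatoid body from testes of C57BL/6 mice at least 6 weeks old, with RNA of 19 to 33 nt cut from a gel. Cells of the tubules were fixed with formaldehyde, broken by sonication in RIPA and centrifuged, which gave lysate, supernatant, pellet1 and pellet2 libraries. Immunoprecipitates (IP) from pellet2 used an antibody to MVH (DDX4, a germ cell RNA helicase) or, as a control, to ACR (acrosin, a protease of the acrosome), and round spermatids sorted from testes labelled hetMIWI were sequenced as well, with no further account of that genotype. Each group has 1 library except MVH IP, whose 2 libraries appear as 1 column, and the pellet column is linked by the labels to pellet1 and pellet2 alike, so which of them it holds is not known.

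The chromatoid body is a cytoplasmic granule of round spermatids that holds DDX4, PIWI proteins and RNA. PIWI proteins bind piRNAs, small RNAs cut from long single-stranded precursors that are transcribed from genomic loci called piRNA clusters, and these make up most small RNA of meiotic and haploid male germ cells. An assembled transcript, in contrast, is defined by the reads alone: software joins overlapping reads outside known genes into a model, which may be an extension of a neighbouring transcript, an unlisted piRNA source, a repeat copy or a fragment of an RNA from an organelle. Mitochondrial DNA is transcribed from both strands as long precursors that are cut at tRNAs into messenger, ribosomal and transfer RNAs.

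Values are FPKM, a read count divided by transcript length and library size. With 1 column a group there is no replicate error and no test, and every difference below compares libraries, not conditions. Of the marker lists, all 5 germ cell microRNA genes of the miR-34 and miR-449 families were above 0 in the lysate, led by Mir34c, as were all 7 haploid germ cell genes, led by Prm1 at 167 FPKM. Blood, vessel-wall, Leydig cell and Sertoli cell markers were also above 0, with the blood microRNA Mir451 at 384606 FPKM. Of the 4 Leydig cell genes only 3 were listed, and of the 4 Sertoli cell genes only 1, Clu at 2.08 FPKM. The part of such cells in the values below was not tested. In such bulk fractions fewer cells of a type and less RNA per cell cannot be told apart. The lysate column of the pellet table was 2.39 times that of the supernatant table in each of the 390 members above 0, so both hold the same library on different scales, and each ratio below was taken within its own table.

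Most members were low. The lysate median was 5.31 FPKM (quartiles 2.57 and 17.1), the supernatant median 3.18 FPKM and the pellet median 1.14 FPKM, against 12.7 FPKM in the lysate column of the pellet table. The 10 highest members held 66.9% of the members' summed lysate FPKM. Members listed at 0 numbered 19 in the lysate, 86 in the supernatant and 166 in the pellet, and 209 were above 0 in all 3. All members together made up 0.133% of the FPKM sum of the lysate, and 6.83% of that sum without microRNA genes, whose short length inflates FPKM.

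Listing in both tables favours loci with lysate signal. Of the 399 assembled rows found only in the supernatant table, 50.1% were at 0 in the lysate, and 90.5% of the 63 found only in the pellet table were, against 4.65% of the members. The 19 members at 0 in the lysate were, of necessity, above 0 in both fractions. Counts of higher and lower members therefore partly follow from the rule, and nothing is supported with them.

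The number of reads behind each value was derived from the supernatant table. The authors' log2 ratio divided by their test statistic gives a standard error (SE), which was read as counting error. The commonest ratio among all features, shared by 108 of them, set 1 supernatant read at 0.667 lysate reads. This gave a lysate read number for the 304 members above 0 in both columns, with a median of 5.11, and 151 of them rested on under 5 reads. Ratios printed with an SE have nothing added to the values, and medians, counts and ranges use values with 1 FPKM added. The read numbers are implied by the errors and are not counts from a file. At least 20 implied lysate reads stood behind 81 members, which are called the better-covered members below, and these held 97.0% of all implied member reads. Since a read number needs both columns above 0, no better-covered member can be at 0 in the supernatant or the lysate. The cut on lysate reads also favours members with a high lysate value, the denominator of each ratio.

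Level and read number gave different orders. The lysate FPKM that 1 implied read was worth ranged from 0.0258 to 132 over the 304 members, and FPKM divides by the length of the assembled model, which the tables do not give and which need not equal the span of the locus. Of the 10 members highest by FPKM, 5 were also among the 10 highest by reads. Cuff.2815 (chr2:151082881-151084496) stood at 1083 FPKM in the lysate on 10.96 implied reads, and Cuff.2816, its neighbour, at 1764 FPKM on 7181 reads. Of 32 members at or above 100 FPKM in the lysate, 10 had under 20 implied reads or none derived. The 8 members with at least 1000 implied reads held 63.9% of the members' reads. All members together held 0.494% of the implied lysate reads of the table, while piRNA clusters held 90.6%.

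**Figure D1:**
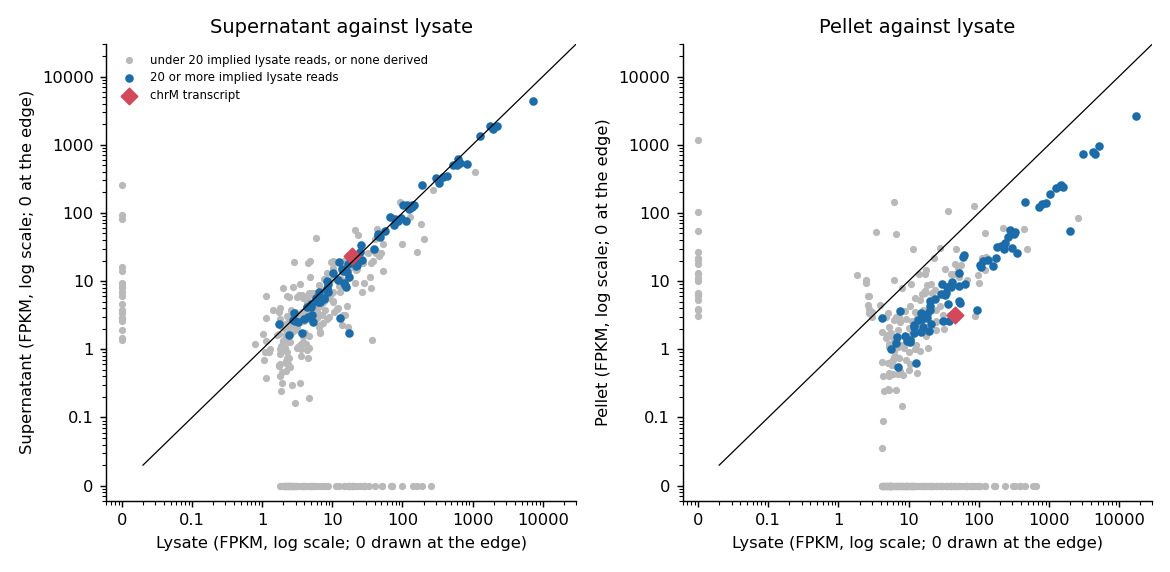
Level of each of the 409 assembled transcripts in the lysate (x axis, FPKM, log scale) against the supernatant (left) or pellet (right) of the same table (y axis, FPKM, log scale), with values of 0 drawn at the edge and the line of equal level in black. Better-covered members (blue) lie along the line in the supernatant and below it in the pellet, and the low-read members (grey) scatter to both sides.

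The highest assembled transcripts sat in a single stretch of chromosome 2. When members separated by at most 100 kb were joined, a gap chosen after the values were seen, 13 stretches of 3 or more members formed, with 52 members in all. The 6 members between positions 151077379 and 151252363 of chromosome 2 took 47.6% of the members' lysate FPKM and 31.2% of their implied reads. The stretch spans 175 kb and its nearest edge is 103 kb from piRNA_cluster_12, so it is separate from the listed cluster. Of these 6, 5 are among the 10 highest lysate levels.

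Cuff.2814 (chr2:151077379-151077787) had the highest lysate level of all members, 7335 FPKM, with 4330 FPKM in the supernatant. In the pellet table it stood at 2616 FPKM against 17532 FPKM in the lysate. The locus was thus lower than the lysate in both fractions, 1.69-fold in the supernatant (log2 ratio -0.76, SE 0.089) and 6.70-fold in the pellet. With 1 FPKM added its pellet log2 ratio was -2.74, where the median was -2.20 over all features and -2.44 over piRNA clusters. Cuff.2814 is the only member that the authors' deposited table calls different between supernatant and lysate.

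Cuff.2816 (chr2:151146633-151150064), the member with the most reads, was level between supernatant and lysate, at 1864 and 1764 FPKM (log2 ratio 0.08, SE 0.022). Its pellet value was 770 FPKM against 4217 FPKM, a log2 ratio of -2.45. Cuff.2820 (chr2:151235818-151239124) was at 2201 FPKM in the lysate, 1855 in the supernatant and 962 in the pellet, where the table's lysate value was 5261. Within the stretch the pellet ratios lay between -2.45 and -4.93, the lowest being Cuff.2815 with its 10.96 reads, and the supernatant ratios between -1.45 and 0.08. The nearest row with a gene name was 4921509C19Rik, at 43.9 kb from Cuff.2823, the last member of the stretch.

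A second stretch lies on chromosome 13 between 50195101 and 50467572, with 7 members of which 6 were better covered. It held 9.84% of the members' lysate FPKM but 4.16% of their implied reads, since its leading member, Cuff.1284 (chr13:50397487-50399310), reached 1925 FPKM on 65.3 reads. Cuff.1284 was at 1684 FPKM in the supernatant and at 721 FPKM in the pellet against 4602 FPKM in that table's lysate. The supernatant ratio of -0.19 was smaller than its SE of 0.24. Cuff.1289 (chr13:50467139-50467572), at 662, 542 and 243 FPKM in lysate, supernatant and pellet, lay at the far end of the stretch. This stretch is 141 kb from its nearest cluster.

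On chromosome 10 a stretch of 5 members between 85157281 and 85317464 held 5.83% of the implied reads, and another of 6 members between 85998083 and 86133311 held 1.91%. Both lie among clusters: their nearest members are 2.60 and 4.20 kb from a piRNA cluster row. Of the 10 highest members outside these stretches, Cuff.3243 (chr4:61898999-61900233) was at 1276 FPKM in the lysate and 1325 in the supernatant on 3322 reads, and Cuff.4425 (chr8:38167261-38169155) at 598 and 509 FPKM on 2825 reads. Cuff.3243 lies 16.8 kb from piRNA_cluster_20, whereas Cuff.4425 is 9761 kb from any cluster row of its chromosome. The last of the 10 is Cuff.2624 (chr2:11838734-11840632), whose 836 FPKM in the lysate rested on 25.8 reads.

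Between supernatant and lysate, the better-covered members were nearly level. Their median log2 ratio, taken with 1 FPKM added to each value, was -0.17 (SD 0.46, range -2.73 to 0.59) over 81 members, beside -0.01 over the 2682 features of the table with as many reads. Of the 81, 58 were below 0 and 23 above, 79 were within 2-fold, and none was 2-fold higher. At least 2-fold lower were 2 (2.47%), where 1.01% of the 2682 features were lower and 0.298% higher. The median absolute log2 ratio of the 81 was 0.247 and their median SE 0.223. Ratio and SE were not compared member by member. piRNA clusters had a median of -0.07.

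Over all 409 members the median was -0.46, beside 0.02 over the 4999 features that reached 1 FPKM in the supernatant or the lysate, a filter all 409 members passed. At least 2-fold lower were 140 members, where 5.42% of all features were, and at least 2-fold higher were 31, where 7.16% were. These are 34.2% and 7.58% of the members. Of the 140, 86 were listed at 0 in the supernatant, and of the 31, 19 were at 0 in the lysate. Among the 304 members above 0 in both columns the median was -0.30, with 54 lower (17.8%) and 12 higher (3.95%). Of the 4580 features above 0 in both columns 2.77% were lower and 1.81% higher. The members' median thus moved toward 0 as members with few reads were left out. Of the 86 at 0 in the supernatant, 49 shared a single p-value of 0.134 in the authors' deposited table.

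The supernatant departures with reads behind them were few. Cuff.3366 (chr4:134022612-134024088), 146 bp from the row of Stmn1, a gene for a protein that destabilizes microtubules, was at 17.1 FPKM in the lysate and 1.73 FPKM in the supernatant. That is a log2 ratio of -3.30 (SE 0.59) on 45.0 reads, the lowest among better-covered members. In the pellet it stood at 8.53 FPKM against 40.9 FPKM. Cuff.2191, named because it is the other member of the 81 past 2-fold lower with 1 FPKM added, was at 2.84 FPKM in the supernatant against 12.9 FPKM on 24.8 reads (log2 ratio -2.19, SE 0.58). With nothing added, Cuff.1288 (log2 ratio -1.11) and Cuff.3477 (-1.10) were past 2-fold as well. The highest ratio among the 81 was that of Cuff.690, named for that reason, at 19.2 FPKM in the supernatant against 12.4 FPKM in the lysate (log2 ratio 0.63, SE 0.156). In the authors' deposited table, calls numbered 0 higher and 1 lower, where 0.942% and 1.59% of all rows were called. A q-value below 0.05 stood in that deposited table for 3 members higher (0.733%) and 11 lower (2.69%), against 3.77% and 4.83% of all rows. All of these members were better covered.

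Members with large supernatant ratios but few reads are given as values. Cuff.115 was highest among members above 0 in both columns, at 42.6 FPKM against 5.80 FPKM on 0.392 implied lysate reads. Cuff.1330 was lowest, at 1.37 FPKM against 36.9 FPKM on 0.832 reads. A read number under 1 is no whole read, and such ratios cannot be told from counting error. Cuff.1489 and Cuff.2612 were the highest of those listed at 0 in the supernatant, at 252 and 192 FPKM in the lysate, and both were listed at 0 in the pellet too. Cuff.4478 was the highest of those at 0 in the lysate, at 252 FPKM in the supernatant and 1179 FPKM in the pellet.

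**Figure D2:**
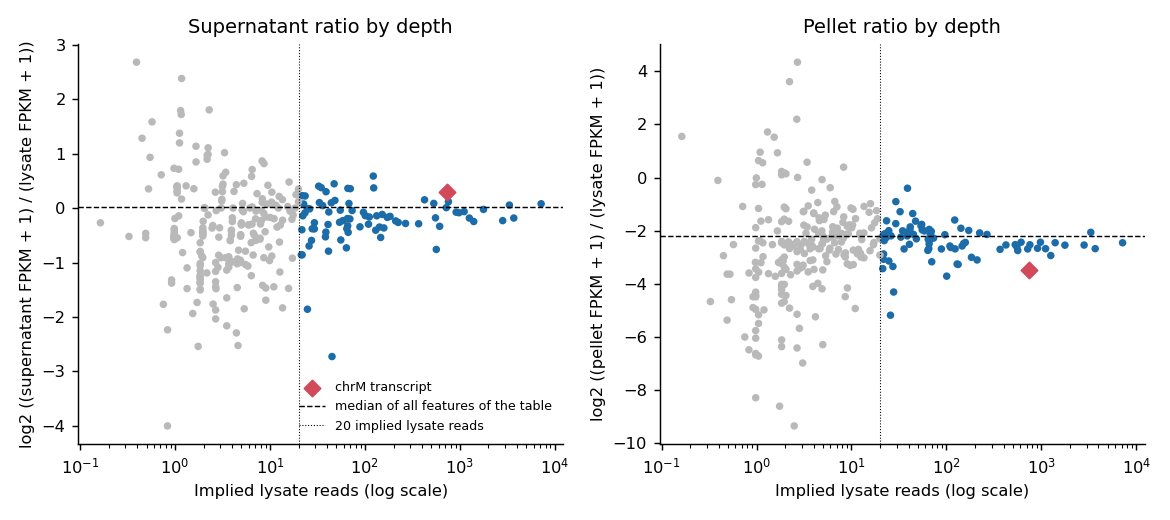
Log2 ratio of supernatant (left) or pellet (right) to lysate, with 1 FPKM added to each value (y axis), against the implied lysate reads on a log scale (x axis), 1 point for each of the 304 members with a derived read number. The spread narrows to the right of 20 reads (dotted line), where members lie near the median of all features (dashed line), and the chrM transcript (red) lies above it on the left and below it on the right.

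In the pellet table nearly all features stood below the lysate, the members among them. The median over all 3005 features was -2.20 on the same log2 scale and over the 409 members -2.57, which is -0.38 relative to all features. At least 2-fold lower were 354 members, 86.6%, where 86.5% of all features were, and at least 2-fold higher were 27 members, 6.60%, where 8.75% were. At this cut, without centring, the members' shares of lower and higher rows were close to those of the table as a whole. Of the 354, 166 were listed at 0 in the pellet, where 321 of the 2599 lower features were. Centred on the median of all features, 123 of the 409 members were at least 2-fold lower and 64 higher. Of all features 17.1% and 14.6% were, so the share lower was larger among members once centred.

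The 81 better-covered members were all lower in the pellet than in the lysate. Their median log2 ratio was -2.44 (SD 0.67, range -5.18 to -0.40), beside -2.23 over 1859 features with as many reads and -2.44 over piRNA clusters. None was at 0 in the pellet. At least 2-fold lower were 79 (97.5%), where 95.3% of the 1859 features and 99.4% of piRNA clusters were. The authors' deposited table called 24 members lower and 0 higher, where 18.7% and 0.699% of all rows were. A q-value below 0.05 in that deposited table was given to 111 members lower (27.1%), 80 of them better covered, where 69.4% of all rows had one. It was given to 4 members higher (0.978%), none of them better covered, where 5.59% of all rows had one.

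The lowest pellet ratio of a better-covered member was that of Cuff.2624, at 54.3 FPKM against 1999 FPKM (log2 ratio -5.20, SE 1.73). Cuff.2641 followed at 3.77 against 93.4 FPKM (log2 ratio -4.63, SE 1.40). Cuff.4059 (chr7:46618850-46619595) was at 25.8 against 350 FPKM, a log2 ratio of -3.76 with an SE of 0.56 on 101 reads. The error is thus large for Cuff.2624 and Cuff.2641 and smaller for Cuff.4059. At the other end Cuff.2100, named as the highest of the 81, was at 2.90 FPKM in the pellet against 4.15 FPKM.

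The members that stood higher in the pellet had few lysate reads or none derived. This follows in part from how the ratio is taken, since the lysate is its denominator. The cut at 20 lysate reads leaves such members out for the same reason. Of the 27 at least 2-fold higher, 19 were at 0 in the lysate. Cuff.4850 (chrX:33341196-33342026) was at 146 FPKM in the pellet against 6.26 FPKM in the lysate and at 0.297 FPKM in the supernatant. Its pellet log2 ratio was 4.55 (SE 0.99). It had 2.70 implied lysate reads, and its q-value in the authors' deposited table was 1.18e-05 although that table's call was no. Cuff.351 was at 53.0 against 3.43 FPKM and Cuff.1366 at 12.1 against 1.86 FPKM, on 2.23 and 2.66 lysate reads. These 3 were above 0 in MVH IP as well, at 19.7, 194 and 192 FPKM. Cuff.3468 was at 49.7 against 6.66 FPKM and listed at 0 in the supernatant.

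No member overlapped a piRNA cluster row, which may follow from assembly at positions without annotation, but a minority lay beside one. The tables hold 181 cluster rows at 173 distinct loci on 18 chromosomes. Distances were taken edge to edge, and 30 members were on a chromosome or contig without a cluster row. The median distance over the rest was 8.85 Mb. Within 1 kb lay 6 members, within 10 kb 23 (5.62%), within 50 kb 43 (10.5%) and within 1 Mb 85. Of named gene rows 1.02% were within 10 kb of a cluster, of microRNA genes 0.506% and of small structured RNA genes 0. Of the 462 assembled rows of only 1 table, 2 were.

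Nearness went with read number. Among the 81 better-covered members 14 (17.3%) were within 10 kb and 27 (33.3%) within 50 kb, and the median distance was 0.261 Mb. Among the other 328, 9 (2.74%) were within 10 kb and 16 (4.88%) within 50 kb, with a median of 10.6 Mb. All 6 members within 1 kb were better covered. The 23 members within 10 kb held 26.6% of the members' implied reads, and the 38 members between 100 kb and 1 Mb, which include the chromosome 2 stretch, held 36.1%. The 294 members over 1 Mb away held 15.7%. At 0 in the pellet were 4.35% of the members within 10 kb and 49.7% of those over 1 Mb away. Better covered were 60.9% and 10.9% of these members, and no better-covered member was at 0 in the pellet. This contrast therefore cannot be told apart from read number. Members of a stretch share a neighbourhood, so these loci are not independent of each other, and the shares are a description.

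**Figure D3:**
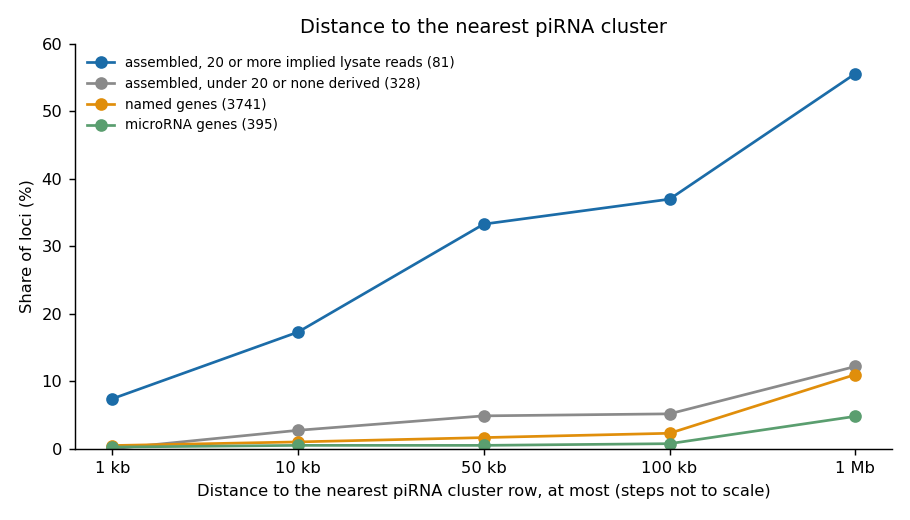
Share of loci (y axis, %) whose edge lies within 1 kb, 10 kb, 50 kb, 100 kb or 1 Mb of the nearest piRNA cluster row (x axis, steps not to scale), for better-covered members, other members, named genes and microRNA genes, with the number of loci in brackets. The better-covered members reach 17.3% at 10 kb and 33.3% at 50 kb, and the other sets stay at or under 2.74% and 4.88%.

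The nearest member, Cuff.2552 (chr19:37335193-37335630), begins 52 bp after piRNA_cluster_197 ends and lies 7.60 kb from the row of Ide, the insulin-degrading enzyme gene. It was at 435 FPKM in the lysate, 344 in the supernatant and 192 in the pellet, where the table's lysate value was 1039. Its cluster was at 339 FPKM in the lysate and 284 in the supernatant, so the flanking transcript stood above the cluster it adjoins in FPKM. That is not an order by reads: 1 implied read was worth 0.710 FPKM in Cuff.2552, where the median over piRNA clusters was 0.0363 FPKM. Cuff.1558 (chr14:45398309-45398794), 65 bp from piRNA_cluster_160, was also above its cluster, at 533 against 465 FPKM in the lysate. Of the 23 members within 10 kb, 5 had a higher lysate FPKM than their cluster. They include Cuff.678, whose cluster was at 0 in the lysate. Cuff.1809 (191 against 189 FPKM) and Cuff.3242 (380 against 374 FPKM) were nearly level with theirs.

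The other members within 1 kb stood below their clusters. Cuff.2942 (chr3:34766758-34771434) ends 108 bp before piRNA_cluster_13 and was at 95.9 FPKM in the lysate, where the cluster was at 943. Cuff.1885 (chr15:78497065-78498331), 263 bp from piRNA_cluster_170, was at 138 FPKM against 823 FPKM. Cuff.4133 (chr7:77071054-77072405), 140 bp from piRNA_cluster_63, was at 7.69 against 26.8 FPKM, and Cuff.3334 (chr4:123572551-123574827), 208 bp from piRNA_cluster_26, was close to its cluster at 44.1 against 48.4 FPKM. Strand was not in the tables, so whether a flanking transcript and its cluster lie on the same strand was not analysed here.

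Members beside a cluster had ratios near those of the cluster. Over the 14 better-covered members within 10 kb, named because the comparison rests on them, the member's supernatant log2 ratio minus that of its cluster had a median of -0.00 and ranged from -0.43 to 0.59, with 13 of the 14 within 0.5. In the pellet the difference had a median of -0.11 and ranged from -0.79 to 1.18, with 8 within 0.5. The largest difference in both was that of Cuff.1809 (chr15:59113549-59113949), 1.60 kb from piRNA_cluster_162. It was at 191 FPKM in the lysate, 260 in the supernatant and 146 in the pellet on 47.4 reads, with log2 ratios of 0.45 and -1.64 where its cluster had -0.15 and -2.82. Cuff.2942 differed the other way in the pellet, at -2.93 where its cluster had -2.24. Better-covered members over 1 Mb from a cluster had medians of -0.15 and -2.22, against -0.17 and -2.53 within 10 kb. Whether the distance bands differ was not tested.

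**Figure D4:**
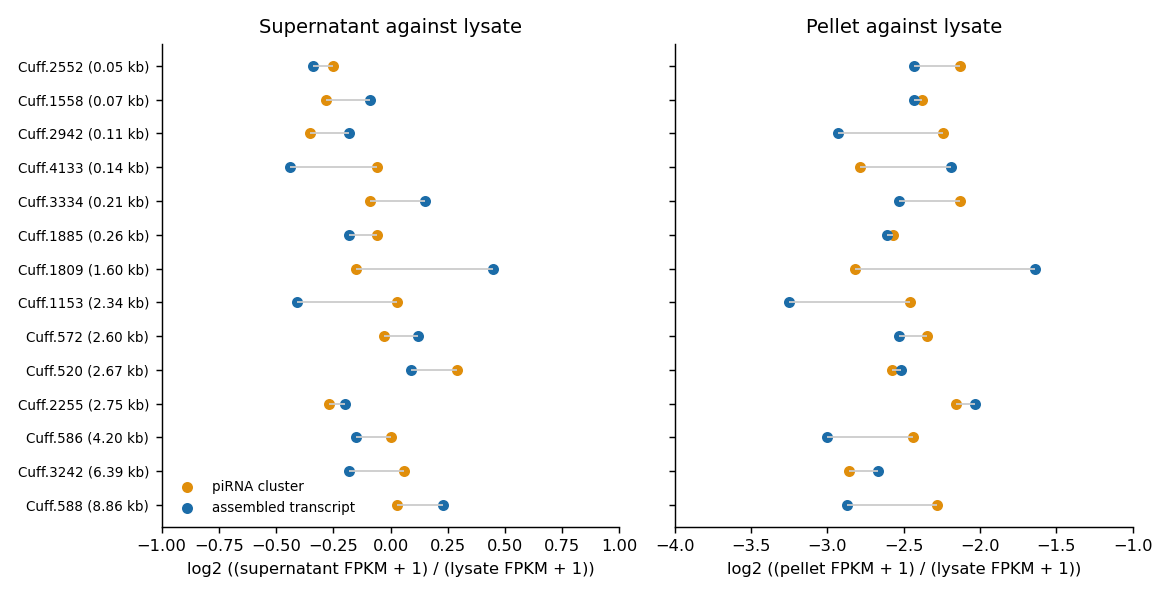
Log2 ratio to lysate (x axis, 1 FPKM added to each value) of the 14 better-covered members within 10 kb of a piRNA cluster row (blue) and of that cluster (orange), in the supernatant (left) and the pellet (right), ordered by distance in kb, given beside each name. The pairs lie within 0.59 of each other on the left and up to 1.18 apart on the right, where Cuff.1809 stands out.

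The chrM transcript, Cuff.4843, covers positions 10775 to 16161 of the mitochondrial genome and is the only chrM row in the supernatant table. Its parts, and which mitochondrial genes it spans, were not analysed here for want of an annotation of that build. It was at 18.9 FPKM in the lysate, 95th among members by level but 12th by implied reads, with 734. Each implied read was worth 0.0258 FPKM, the least of all members. In the supernatant it was at 23.3 FPKM, and in the pellet table at 3.17 FPKM against 45.3 FPKM in the lysate. It was thus above the lysate in the supernatant and far below it in the pellet.

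The supernatant value was 1.23-fold the lysate value (log2 ratio 0.30, SE 0.066), and the authors' deposited table gives it a q-value of 0.000121 but no call. Only 8 of the 81 better-covered members had a higher ratio in the supernatant. The pellet value was 14.3-fold below the lysate (log2 ratio -3.84, SE 0.216), where the median of the 81 on that scale was -2.56. With 1 FPKM added to each value it was at -3.47, and only 3 of the 81 were lower, Cuff.2624, Cuff.2641 and Cuff.4059, which had at most 101 reads each. Without the added FPKM, Cuff.2624, Cuff.2641, Cuff.3477 (log2 ratio -4.35, SE 1.40) and Cuff.3399 (-3.86, SE 1.22) were lower, and Cuff.4059 at -3.76 was not. Relative to the median of all features, the chrM transcript was at -1.28 in the pellet on the scale with the added FPKM. Both comparisons use the same lysate library, so they are not independent of each other.

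In the ACR IP the chrM transcript was low, as were most better-covered members. It was at 1.12 FPKM in the ACR IP against 34.9 FPKM in that table's lysate column, 31.2-fold lower. Of the 72 better-covered members there, 71 were below the lysate and 59 at 0, where 58.7% of all features of that table were above 0. The share of all its features below the lysate was not computed. Whether the members or the chrM transcript differ from that table as a whole was therefore not tested. That lysate value is 1 of the 58 under 2.08 times the supernatant table's lysate, so the fold is uncertain. In MVH IP the chrM transcript was at 4.07 FPKM, and 2289 of the 4818 features above 0 in that table stood higher, which puts it near the middle of them. The round spermatid table has no chrM row.

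Other tables listed part of the members at the same locus: 135 in the ACR IP table, 338 in the MVH IP table and 124 in the round spermatid table. They were normalized separately, so levels are set side by side only. In round spermatids 121 of the 124 were above 0 (97.6%, where 96.8% of all features of that table were), with a median of 34.3 FPKM among those, and all 59 better-covered members among them were. In MVH IP, the purified chromatoid body, 122 of the 338 were above 0 (36.1%, where 53.8% of all features were), of which 67 were among 78 better-covered members and 55 among the other 260. In the ACR IP 30 of the 135 were above 0 (22.2%, where 58.7% of all features were), and 59 of the 72 better-covered members there were listed at 0. Above 0 in lysate, supernatant, pellet, MVH IP and round spermatids alike were 69 members, 52 of them better covered.

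The chromosome 2 stretch led in round spermatids and MVH IP as in the lysate. Cuff.2814 was the highest member in both, at 13231 FPKM in round spermatids and 2675 FPKM in MVH IP, and was listed at 0 in the ACR IP. Without microRNA genes it ranked 3rd of all features in round spermatids and 11th in MVH IP. Cuff.2820 followed in round spermatids at 8610 FPKM, with 2143 FPKM in MVH IP, and Cuff.2816 was at 5311 and 1469 FPKM. Cuff.1284 of the chromosome 13 stretch was at 3638 and 1403 FPKM. Cuff.1558, beside piRNA_cluster_160, was at 2296 FPKM in round spermatids and 474 FPKM in MVH IP. Of the 10 members highest in the lysate, 9 were above 0 in each of the 2 tables, and the exception in both was Cuff.2624, listed at 0 in MVH IP and not listed in round spermatids.

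**Figure D5:**
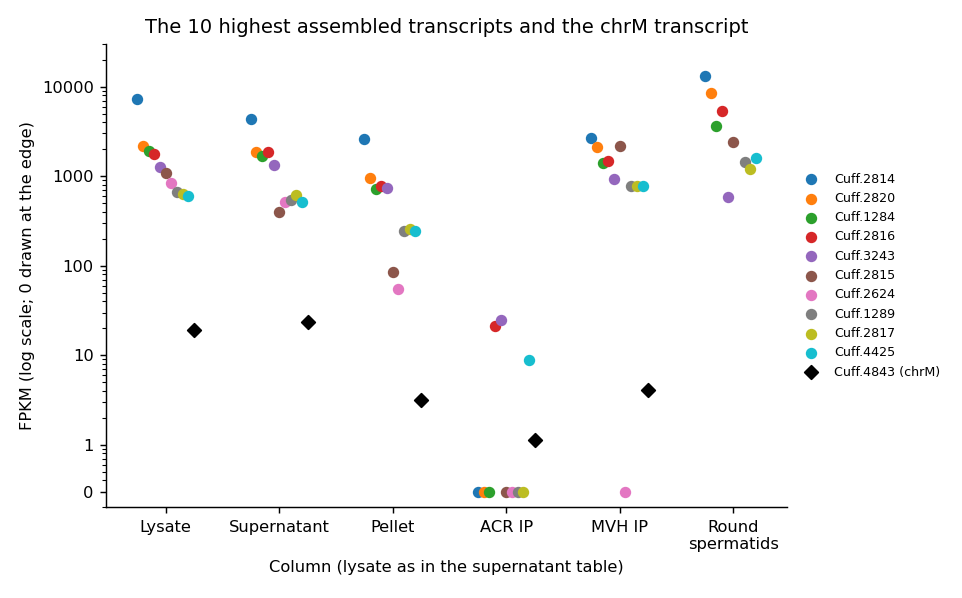
FPKM (y axis, log scale, 0 drawn at the edge) of the 10 members with the highest lysate level and of the chrM transcript (black diamonds) in 6 columns (x axis), with the lysate as in the supernatant table; columns of different tables were normalized separately. All 10 are above 100 FPKM in lysate and supernatant, 7 are listed at 0 in ACR IP, and the chrM transcript lies between 1.12 and 23.3 FPKM in the 5 columns that list it.

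The highest members of the ACR IP control were others, on few reads. Cuff.1088 was at 3228 FPKM there against 108 FPKM in that table's lysate, and listed at 0 in supernatant, pellet and MVH IP. Cuff.3316 was at 1687 FPKM, with the lysate at 0 in that table but at 162 FPKM in the supernatant table, so its ratio is uncertain. In 133 members with a lysate value in both tables, the ACR table's lysate was 2.08 times that of the supernatant table in 75 and less in 58. Cuff.3159 (chr4:8599906-8600477) was high in both IPs, at 729 FPKM in ACR IP and 2242 FPKM in MVH IP, and at 106 FPKM in the pellet against 36.1 FPKM, where the lysate of the supernatant table held 15.1 FPKM on 1.53 implied reads. Cuff.3366, low in the supernatant, was at 88.0 FPKM in ACR IP against 35.2 FPKM, the only better-covered member of the 72 not below the lysate there, and at 106 FPKM in MVH IP.

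In MVH IP, Cuff.4890 (chrX:98899659-98899884), which the ACR IP table does not list, stood at 1924 FPKM, with 128 FPKM in the pellet against 85.1 FPKM and 18.5 FPKM in the supernatant against 35.6 FPKM. Cuff.2080 (chr16:49216959-49218807) was at 962 FPKM in MVH IP and listed at 0 in supernatant, pellet and ACR IP, with 163 FPKM in the lysate. Both rest on few or no derived reads.

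Members were assembled at positions without annotation, so little overlap with named genes follows from how they are defined. Only Cuff.3055, named as the single case, overlapped a named row, that of Arhgef11. Within 10 kb of a named row lay 117 members (28.6%), and the median distance was 48.2 kb. Neither value was computed for other classes of row. By chromosome they were most numerous on 10 with 35, 1 with 32 and 2 with 31. The tables list only rows with small RNA signal, so an unlisted gene may lie nearer, and whether a locus lies in an exon, intron or UTR was not analysed here.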

How the data were processed

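Per the submitters' processing notes, TopHat and Cuffdiff were used on mm9, with no versions or roles given; the handling of reads with several matches was not given in the sources used here. FPKM in the 5 tables were deposited by the authors, as were p-values, q-values, calls and a test statistic, a score from which each SE was derived; their log2 fold change column was used only for that SE, and stands in the deposited tables with a placeholder where a value is 0. The MVH IP values of transcripts with the same name and locus were summed, and 1 column of no sample was not used.

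Ratios were taken per table as log2 with a pseudocount of 1 FPKM, which understates changes of low features, for rows at or above 1 FPKM in either column, and counted past 2-fold. Intervals and implied reads cover counting error only. Distances were edge to edge, and no sequence was read because the genome at hand is of another build. Python 3.11.15, numpy 2.4.6, pandas 2.3.3 and matplotlib 3.10.9 were used. The derivation of reads was run on simulated counts whose errors came from the same counting formula, so their recovery was fixed in advance. Whether the authors' test statistic holds counting error alone was not tested.

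The members and lists were chosen with earlier results of these data known. Named were the chrM transcript, the 10 highest in the lysate, in each comparison the 8 highest and 8 lowest ratios and 3 highest members at 0 in 1 column, the 8 nearest to a cluster, and the 8 highest in each other table. Not all of these are described, and others are named where a result turns on them, chosen after their values were seen.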

Additional observations from a re-analysis of the deposited data

How the results depend on the processing

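Each median and count was recomputed under other settings, 64 values in all, and 31 of them kept their size (counts within 1.5 times, medians within 0.1 on the log2 scale, distances within 10%). No median changed sign. The 33 others follow. The members' supernatant median of -0.46 was -0.57 with a pseudocount of 0.1, -0.18 with 10, -0.30 above 0 in both columns and -0.17 with at least 20 implied reads, a setting added after seeing the data. The 31 higher members became 8 with a pseudocount of 10, 12 above 0 in both columns, 15 at 4-fold and 0 with 20 reads, and the 140 lower ones 44, 54, 64 and 2. The pellet median of -2.57 was -3.36 with a pseudocount of 0.1, -0.96 with 10, -2.12 above 0 in both columns, -0.38 when centred and -2.44 with 20 reads. The 27 higher in the pellet became 15 with a pseudocount of 10, 8 above 0 in both columns, 64 when centred and 0 with 20 reads, and the 354 lower ones 196, 188, 123 and 79. In the authors' deposited table, a q-value below 0.05 in place of the call gave 3 for 0 higher and 11 for 1 lower in the supernatant, and 4 for 0 higher and 111 for 24 lower in the pellet. Near a cluster were 6 members at 1 kb and 43 at 50 kb for 23 at 10 kb, 14 of them with 20 reads, and the median distance was 0.261 Mb for 8.85 Mb with 20 reads. The membership of 409 did not move with matching by overlap or name, and leaving out the chrM transcript kept every median and moved 1 count by 1.

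No paired analysis was possible because each group has 1 column of values. For the same reason no replicate could be left out in turn. Depth limits most members: 328 of the 409 had under 20 implied lysate reads or none derived. Among those with an SE the ratio lay beyond 2 SE of 0 in 6 of 223 in the supernatant and in 29 of 143 in the pellet. The same share over all features was not computed. In the pellet the median of all features was -2.20, so the 29 do not measure a difference from the table as a whole.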
